A study of Mus musculus with 6 samples.

Results

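The striated-muscle miRNAs in serum exosomes were followed as 8 rows, picked by name from the 1982 miRNA rows of the table: mmu-miR-1a-3p, mmu-miR-133a-3p, mmu-miR-133a-5p, mmu-miR-133b-3p, mmu-miR-206-3p, mmu-miR-208a-3p, mmu-miR-208b-3p and mmu-miR-499-5p. The mouse prefix mmu is left out from here on. All 8 were listed, 6 had a count in at least 1 mouse, and 3 had enough counts to be compared between groups. Exosomes, small vesicles that cells release into blood, were pelleted from serum of 6 male C57BL/6 mice that were 3 months old. The Acu/LFES group (3 mice) had electrical pulses at 20 Hz and 1 mA passed through acupuncture needles in the hindlimb for 30 min, and the sham group (3 mice) did not. Needles were also put into sham mice, near the same points and with no current, so needling was common to both groups. The serum was drawn by heart puncture in both groups, and the time between treatment and the serum used for sequencing is not given in the sources used here. Small RNA of each mouse was its own library, with between 391708 and 1504137 counts, and mice are named by their label number, 1 to 3 for sham and 4 to 6 for Acu/LFES. Values per mouse are deposited counts, or normalized CPM, the usual CPM with the library size scaled by edgeR's TMM factor. A scaled size can be smaller than the total, so summed levels can exceed the whole.

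miRNAs are short RNAs that bind mRNAs and lower their translation, and a target is chosen mainly through the seed near the 5′ end. In striated muscle a small set of them, often called myomiRs, is highly enriched. miR-1 and miR-133 are cut from shared transcripts in both skeletal and heart muscle, miR-206 is enriched in skeletal muscle and takes part in its differentiation and regeneration, and miR-208a, miR-208b and miR-499 are made from introns of myosin heavy chain genes. Contracting or injured muscle can release such miRNAs into blood.

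RefSeq mature sequences on GRCm38.p6 were matched by name for 5 of the 8 miRNAs. They are shown 5′ to 3′ with the seed, bases 2 to 8, in capitals, because the seed sets which members could act on the same mRNAs and the remaining bases set how far reads of related members could be told apart.
miR-206-3p: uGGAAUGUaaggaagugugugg
miR-133b-3p: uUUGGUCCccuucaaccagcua
miR-208a-3p: aUAAGACGagcaaaaagcuugu
miR-208b-3p: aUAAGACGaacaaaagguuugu
miR-499-5p: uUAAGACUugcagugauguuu
miR-208a-3p and miR-208b-3p share their seed and differ at G10A, A16G and C18U, counted from 1 at the 5′ end with the base of miR-208a-3p first. The seed of miR-499-5p differs from theirs at a single position, G8U. The seed of miR-206-3p was also found in miR-6349, with 1 count in mouse 3 and 7 in mouse 4, and in miR-6382, with 0 counts in every mouse. Sequences of miR-1a-3p, miR-133a-3p and miR-133a-5p were not matched, so seeds shared with them are not shown. miR-1a-3p belongs to the same seed family as miR-206-3p.

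The genes lie in clusters or inside other genes in GRCm38 (GENCODE M21). Mir206 and Mir133b are on the plus strand of chromosome 1, 3686 bases apart, in exons of the noncoding RNA gene Gm28653, with miR-206-3p at chr1:20679055-20679076 and miR-133b-3p at chr1:20682834-20682855. Mir1a-1 (chr2:180389048-180389124, plus strand) lies 9254 bases from Mir133a-2 (chr2:180398379-180398482, plus strand), both outside other annotated genes. The members hosted by myosin genes are intronic. Mir208a lies in an intron of Myh6, with miR-208a-3p at chr14:54949072-54949093 on the minus strand, and Mir208b lies in an intron of Myh7, with miR-208b-3p at chr14:54975710-54975731 on the minus strand. Mir499 lies in an intron of Myh7b, with miR-499-5p at chr2:155622893-155622913 on the plus strand.

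Nearly all of the muscle signal came from miR-133a-3p, miR-1a-3p and miR-206-3p, which held at least 99.5% of the summed counts of the 8 members in every mouse. miR-133a-3p had the most counts, with rank 15 to 21 among all miRNAs of a library. miR-1a-3p followed at rank 21 to 39, and miR-206-3p at rank 39 to 74. This order was the same in all 6 mice. The rows are counts of molecules of nearly the same length, but ligation favours some sequences over others, so a ratio between members is a ratio of counts and not of molecules in the serum.

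miR-133a-3p, a regulator of muscle growth and excitability, was counted 4748, 2563 and 1916 times in mice 1, 2 and 3 (sham) and 8639, 2574 and 8860 times in mice 4, 5 and 6 (Acu/LFES). As normalized CPM the sham levels were 6845, 5979 and 6331, and the Acu/LFES levels were 5170, 5352 and 8085. The sham mice lay close together, and 2 Acu/LFES mice lay below them and 1 above. Mean levels were 6385 ± 435 CPM for sham and 6203 ± 1633 CPM for Acu/LFES (SD, n = 3 per group). Acu/LFES over sham gave a fitted log2 fold change of -0.04 (standard error 0.25, 95% interval from -0.59 to 0.51, adjusted p = 0.973 in edgeR's quasi-likelihood test, by Benjamini-Hochberg over 259 miRNAs). In fold terms the interval reached from 0.663 to 1.42, so a difference inside this range could not be told from none with these mice.

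miR-1a-3p, which promotes muscle differentiation, was counted 2432, 1560 and 978 times in mice 1, 2 and 3 (sham) and 8328, 866 and 3845 times in mice 4, 5 and 6 (Acu/LFES). As normalized CPM the sham levels were 3506, 3639 and 3232, and the Acu/LFES levels were 4984, 1801 and 3509. Acu/LFES mouse 4 was the highest of all mice, mouse 5 the lowest, and mouse 6 lay among the sham mice, so the groups overlapped. Mean levels were 3459 ± 208 CPM for sham and 3431 ± 1593 CPM for Acu/LFES (SD, n = 3 per group). Acu/LFES over sham gave a fitted log2 fold change of -0.01 (standard error 0.33, 95% interval from -0.75 to 0.73, adjusted p = 0.992 in edgeR's quasi-likelihood test). It was 0.34 without mouse 5 and -0.38 without mouse 4.

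miR-206-3p, the skeletal member of the miR-1 seed family, was counted 409, 203 and 513 times in mice 1, 2 and 3 (sham) and 761, 155 and 915 times in mice 4, 5 and 6 (Acu/LFES). As normalized CPM the sham levels were 590, 474 and 1695, and the Acu/LFES levels were 455, 322 and 835. Sham mouse 3 stood apart, at 2.03-fold the next highest mouse, although its library was the smallest, and the remaining mice of both groups overlapped. Mean levels were 919 ± 674 CPM for sham and 538 ± 266 CPM for Acu/LFES (SD, n = 3 per group). Acu/LFES over sham gave a fitted log2 fold change of -0.77 (standard error 0.51, 95% interval from -1.90 to 0.37, adjusted p = 0.751 in edgeR's quasi-likelihood test). Without sham mouse 3 it was 0.05 (adjusted p = 0.980 in the same test), so the lower mean of the Acu/LFES mice rested on that library. In mouse 3 the summed liver miRNAs (miR-122-5p, miR-192-5p and miR-194-5p) were also at their highest, 23630 CPM, against 4063 to 17948 CPM in the other mice. Most of that sum was miR-122-5p, at 20828 CPM in mouse 3. miR-192-5p (2796 CPM) was lower there than in the other sham mice, and miR-194-5p (6.61 CPM) was lower than in every other mouse. By total counts mouse 6 was highest for miR-206-3p and for the liver sum, with 1768 CPM of miR-206-3p against 1310 in mouse 3. The liver share was then 3.80% in mouse 6 against 1.83% in mouse 3. The part of the liver miRNAs in the level of miR-206-3p was not tested.

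**Figure D1:**
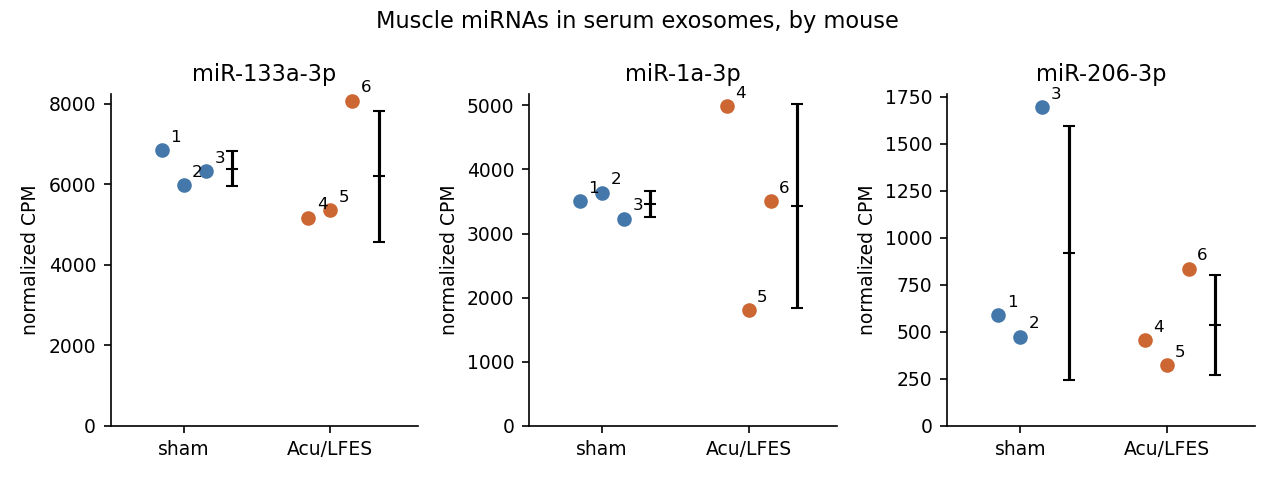
Normalized CPM (linear axis from 0) of miR-133a-3p, miR-1a-3p and miR-206-3p, with 1 point per mouse labelled by its number and the mean ± SD of 3 mice beside each group. The sham mice sit close together for miR-133a-3p and miR-1a-3p, while sham mouse 3 stands at 1695 CPM for miR-206-3p.

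By edgeR's quasi-likelihood test, 0 of the 3 tested muscle miRNAs had an adjusted p under 0.05, beside 0 (0%) of all 259 tested. At the unadjusted level 0 of the 3 passed as well, beside 23 of all (8.88%), of which 15 (5.79%) had a positive and 8 (3.09%) a negative log2 fold change. Complete separation of the groups in normalized CPM was seen for 0 of the 3 and for 44 of all (17%), with 23 (8.88%) higher and 21 (8.11%) lower in the Acu/LFES mice. The median log2 fold change of the 3 was -0.04, beside 0.05 over all miRNAs tested. By DESeq2's Wald test 9 of all passed after adjustment, and 0 of the 3.

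**Figure D2:**
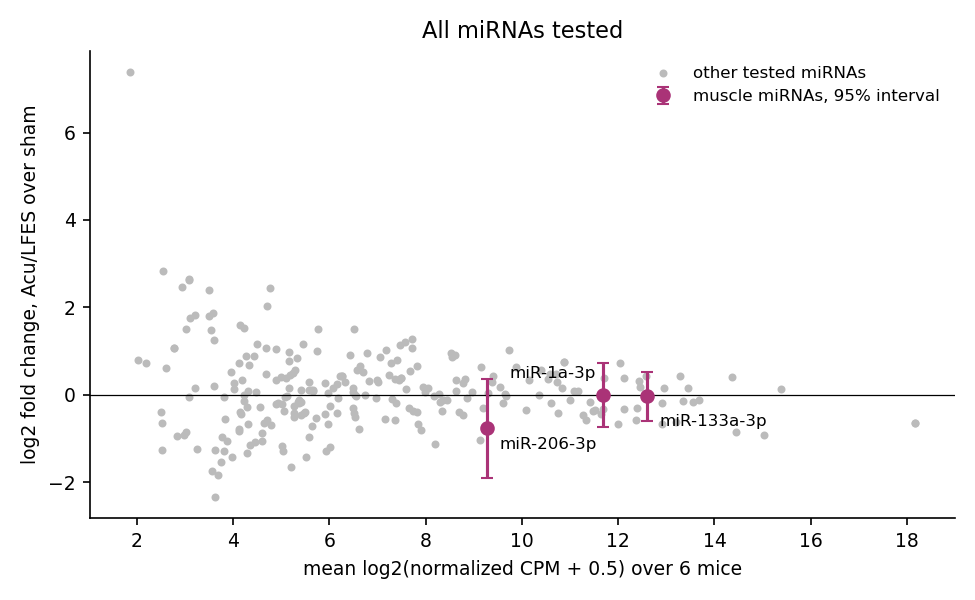
Log2 fold change of Acu/LFES over sham (vertical axis) against mean abundance on the log2 scale (horizontal axis) for the 259 miRNAs tested, with the muscle miRNAs marked with their 95% intervals. All 3 intervals include 0, and that of miR-206-3p is the widest.

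The sign of the fold changes of miR-133a-3p and miR-1a-3p, both near 0, depended on how the libraries were scaled, and that of miR-206-3p turned with total counts only among the scalings tried. The red-cell miRNAs miR-486a-5p and miR-486b-5p jointly took 29.2% of the counts in mouse 6 and between 61.7% and 74.0% in the other mice. Their rows hold identical counts, and entered once they took 17.1% in mouse 6 and 44.6% to 58.7% in the other mice. With total counts in place of TMM factors, miR-133a-3p stood at 17123 CPM in mouse 6 and between 3890 and 7597 in the other mice. The log2 fold changes were then 0.72 for miR-133a-3p, 0.71 for miR-1a-3p and 0.15 for miR-206-3p, while the median of all miRNAs tested moved from 0.05 to 0.71. Relative to that median they were 0.0071, 0.00066 and -0.56, in the same order. Summed, the members held 1.22%, 0.657% and 0.870% of a sham library and 1.18%, 0.570% and 2.64% of an Acu/LFES library. For mouse 6 the 95% Wilson interval of this share was from 2.60% to 2.69%, which covers counting error only. When the miR-486 rows were taken out of the total, the shares became 3.18%, 2.52% and 3.02% for sham and 3.10%, 2.15% and 3.73% for Acu/LFES, so the groups overlapped on both scales.

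Ratios between members within a library need no scaling between libraries. For every 100 counts of miR-133a-3p there were 51.2, 60.9 and 51.0 counts of miR-1a-3p in sham mice 1, 2 and 3 and 96.4, 33.6 and 43.4 in Acu/LFES mice 4, 5 and 6. The 95% Wilson intervals were 93.5 to 99.3 in mouse 4 and 31.2 to 36.3 in mouse 5. The Acu/LFES mice thus lay on both sides of the sham mice, with a 2.87-fold range between mice 4 and 5, although miR-1a and miR-133a are cut from shared transcripts. On the log2 scale (counts plus 0.5) the ratio averaged -0.88 ± 0.15 for sham and -0.94 ± 0.79 for Acu/LFES (SD, n = 3 per group), a difference of -0.06 (two-sided exact permutation test, p = 1, adjusted p = 1 over the 2 ratios computed). The test cannot go below 0.1 with 3 mice against 3.
The ratio of miR-206-3p, again per 100 of miR-133a-3p, came to 8.61, 7.92 and 26.8 for sham and to 8.81, 6.02 and 10.3 for Acu/LFES. Sham mouse 3 again stood apart, with a 95% Wilson interval of 24.3 to 29.5, so its high miR-206-3p was not shared by miR-133a-3p. The log2 ratio averaged -3.03 ± 0.98 for sham and -3.61 ± 0.40 for Acu/LFES (SD, n = 3 per group), a difference of -0.58 (two-sided exact permutation test, p = 0.6, adjusted p = 1). Without sham mouse 3 the difference was -0.01.

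**Figure D3:**
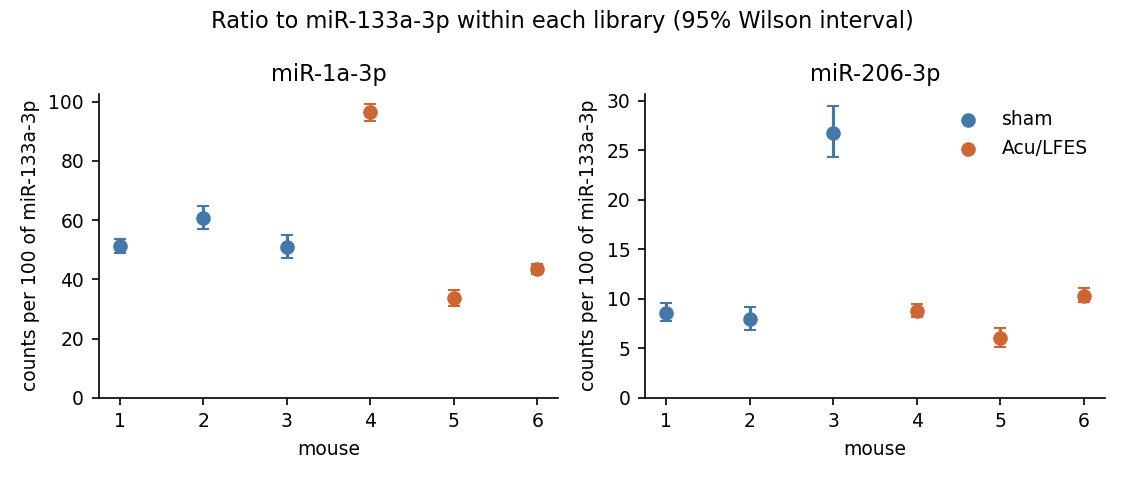
Counts of miR-1a-3p (left) and miR-206-3p (right) per 100 counts of miR-133a-3p in each mouse, with 95% Wilson intervals that cover counting error only. Mouse 4 is highest for miR-1a-3p at 96.4 and mouse 3 is highest for miR-206-3p at 26.8.

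Spread between mice of a group differed among the members. On log2(CPM + 0.5), the pooled SD within groups was 0.26 for miR-133a-3p, 0.53 for miR-1a-3p and 0.85 for miR-206-3p. Among the 60 tested miRNAs at least as abundant on average as miR-206-3p, itself included, the median was 0.30, and 22 varied less than miR-133a-3p, 47 less than miR-1a-3p and 56 less than miR-206-3p. That set ends at the abundance of miR-206-3p. Over all 259 tested the median was 0.70, and 27 varied less than miR-133a-3p, 96 less than miR-1a-3p and 151 less than miR-206-3p, so the place of miR-206-3p depends on the set it is ranked in.

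No relation between the 3 tested members across mice passed its test on the TMM scale. Over 6 mice, miR-133a-3p and miR-206-3p had Pearson's r = 0.53 (exact permutation p = 0.306, adjusted p = 0.917 over 3 pairs) and Spearman's rho = 0.77 (exact permutation p = 0.103, adjusted p = 0.308). miR-1a-3p and miR-133a-3p, which share transcripts, had r = 0.12 (exact permutation p = 0.931, adjusted p = 0.931) and rho = -0.20 (exact permutation p = 0.714, adjusted p = 0.919). miR-1a-3p and miR-206-3p, which share a seed family, had r = 0.24 (exact permutation p = 0.653, adjusted p = 0.931) and rho = -0.09 (exact permutation p = 0.919, adjusted p = 0.919). Next, r was taken without the 2 mice farthest from the median of the first member named. Over the 4 mice left it was 0.56 for miR-133a-3p and miR-206-3p and 0.05 for miR-1a-3p and miR-133a-3p. For miR-1a-3p and miR-206-3p it was -0.97 without mice 4 and 5, so its sign depended on the mice kept. No p was computed over 4 mice. With each mouse taken as its deviation from its group mean, r was 0.52, 0.10 and 0.20 for the same pairs, and 3 mice are too few for a value within either group.
With total counts the same pairs had r = 0.75, 0.82 and 0.66, and with miR-103-3p as reference 0.83, 0.61 and 0.77. Under these scales all miRNAs moved together more, with a median r over all pairs of tested miRNAs of 0.48 and 0.39, against -0.01 with TMM factors. In the scale by miR-103-3p the adjusted p of r was 0.0333 for miR-133a-3p with miR-206-3p and 0.0458 for miR-1a-3p with miR-206-3p (exact permutation tests over 6 mice). By rho all 3 pairs passed on that scale, with 0.94 for both of these pairs (adjusted p = 0.025) and 0.89 for miR-1a-3p with miR-133a-3p (adjusted p = 0.0333, exact permutation tests). With total counts rho was 0.77, 0.89 and 0.77 for the pairs in the order above, with adjusted p from 0.1 to 0.103 (exact permutation tests). The members share library, depth and the same divisor on each of these scales, which the permutation tests do not allow for.

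**Figure D4:**
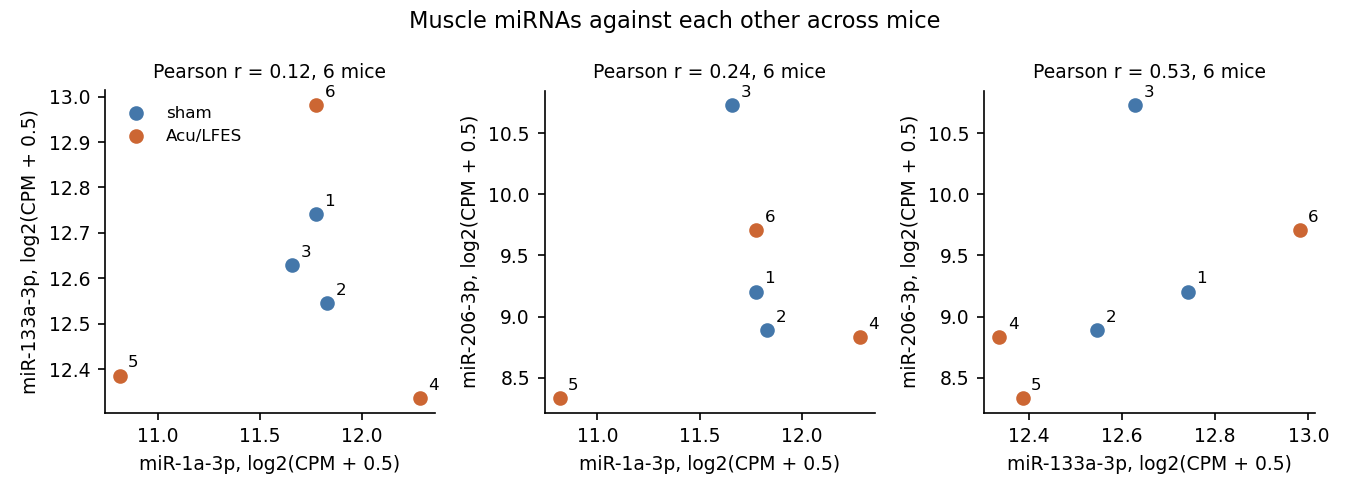
Each pair of the tested muscle miRNAs on log2(normalized CPM + 0.5), with 1 point per mouse labelled by its number and coloured by group. Mice 4 and 5 lie at the extremes of miR-1a-3p and low in miR-133a-3p, and mouse 3 is highest in miR-206-3p.

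Outside of the muscle set, the 5 miRNAs of 256 with the highest Pearson's r to miR-133a-3p over 6 mice were miR-425-3p (0.84), miR-130a-3p (0.77), miR-574-5p (0.75), miR-122-5p (0.73) and miR-382-5p (0.71). These values describe likeness after a search over all tested miRNAs and carry no p. miR-122-5p, the main miRNA of liver cells, stood at 8546, 7325 and 20828 CPM for sham and at 1693, 6003 and 15312 CPM for Acu/LFES, so mice 3 and 6 were highest and mouse 4 lowest.

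miR-499-5p, made with the slow and cardiac myosin Myh7b, had 0 counts in sham mice 1, 2 and 3 and 51, 0 and 20 counts in Acu/LFES mice 4, 5 and 6. It was therefore counted in some Acu/LFES mice but not in all, and the groups overlapped at 0. The normalized CPM was 30.5 in mouse 4 and 18.3 in mouse 6. A count of 0 allows up to 3 counts, which is 9.91 CPM in sham mouse 3, the highest sham limit. Averaged over its 3 mice, Acu/LFES was at least 1.64-fold higher than that limit for a single library, although mouse 5 itself was at 0. This bound rested on mouse 4, without which the Acu/LFES mean was 9.13 CPM, under the limit. At the ratio to miR-133a-3p seen in mouse 4 (5.90 per 1000), sham mice 1, 2 and 3 would have had 28.0, 15.1 and 11.3 counts, mouse 5 would have had 15.2, and mouse 6 would have had 52.3 in place of 20. At the ratio of mouse 6 (2.26 per 1000) the sham mice would have had 10.7, 5.79 and 4.33 counts and mouse 5 would have had 5.81. Both ratios come from the mice with counts, so they give more than 0 in every other mouse by construction and are no test of absence. The 2 mice with counts differed in their ratio. miR-499-5p did not pass the filter on low counts with all 6 mice. With no filter its unadjusted p was 0.0116 and its adjusted p 0.577 in edgeR's quasi-likelihood test. In that fit 53 of 954 miRNAs (39 higher) had an unadjusted p under 0.05. It also passed the filter in the fits that left out a sham mouse or mouse 5. Over the 5 alternatives that tested it, its adjusted p by the same test was from 0.296 to 0.590.
The absence of a row from all sham mice was not particular to miR-499-5p. Of the 954 miRNAs with a count, 17 (1.78%) had 0 counts in every sham mouse and at least 10 in 2 or more Acu/LFES mice, and 0 had the opposite pattern. The libraries of mice 4 and 6 were also the largest after TMM scaling, 1670863 and 1095839, against 302622 to 693664 in the other mice. By total counts, sham mice 1 and 2 (624982 and 658833) were deeper than mouse 6 (517421). Those totals enter the identical counts of miR-486a-5p and miR-486b-5p in both rows. Without the miR-486 rows the order turned, with 239250 and 171521 counts in sham mice 1 and 2 and 366539 in mouse 6. The part of depth in this pattern was not tested.

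miR-133a-5p, the other arm of the miR-133a hairpins, was counted 2, 0 and 0 times in mice 1, 2 and 3 (sham) and 1, 0 and 39 times in mice 4, 5 and 6 (Acu/LFES). Only mouse 6 had more than 2 counts. At its ratio of 4.40 counts per 1000 of miR-133a-3p, mouse 4 would have had 38.0 counts and sham mouse 1 would have had 20.9, so the arms of the hairpin were not counted in a fixed proportion across mice. miR-133b-3p was counted 8, 1 and 1 times in mice 1, 2 and 3 (sham) and 7, 4 and 6 times in mice 4, 5 and 6 (Acu/LFES). Its mature sequence is nearly that of miR-133a-3p, and how reads were divided between these rows is not given in the sources used here, so its counts are uncertain. miR-133b-3p stayed far below miR-206-3p in every mouse, although both genes lie in the same noncoding RNA.

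**Figure D5:**
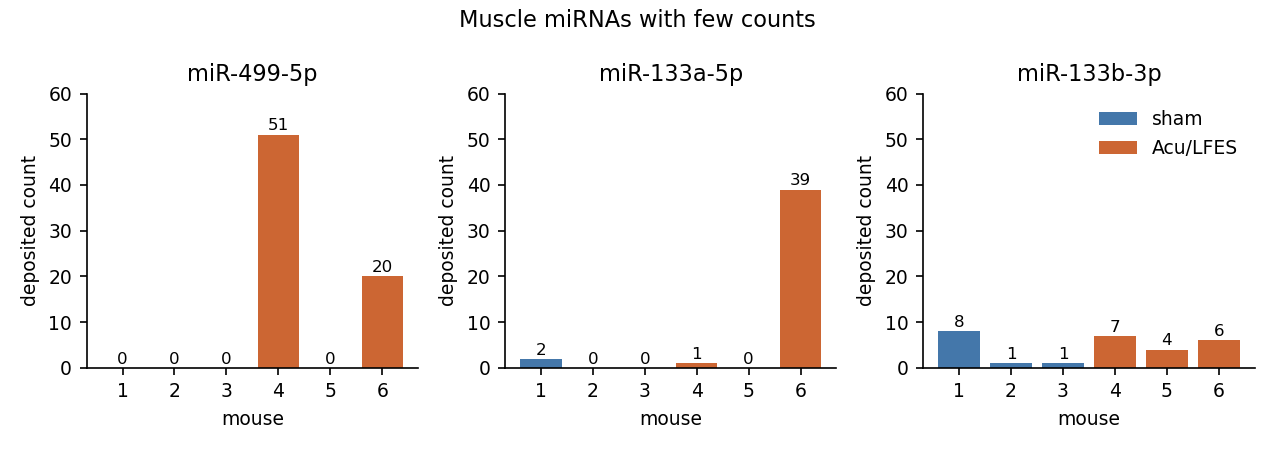
Deposited counts of miR-499-5p, miR-133a-5p and miR-133b-3p in each mouse (bars from 0, count printed above each). miR-499-5p is seen in mice 4 and 6 only, and miR-133a-5p reaches 39 counts in mouse 6 and at most 2 in the other mice.

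The members miR-208a-3p and miR-208b-3p, hosted by the myosin genes Myh6 and Myh7, had 0 counts in every mouse. A count of 0 allowed up to 1.99 CPM of total counts in mouse 4, the deepest library, and up to 7.66 in mouse 3, the shallowest, for counting error only. miR-208 was thus not detectable at this depth. Both groups were at 0 for miR-208, while miR-499-5p was counted in mice 4 and 6. The muscle that the miR-499-5p counts came from was not tested.

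The other arms and look-alike rows of the same genes were nearly empty. Of 10 such rows, 3 had a count, which were miR-1a-1-5p with 4 counts in mouse 4, miR-1b-3p with 1, 2 and 1 counts in mice 1, 4 and 5, and miR-206-5p with 1 count each in mice 5 and 6. The rows for miR-1a-2-5p, miR-1b-5p, miR-133b-5p, miR-133c, miR-208a-5p, miR-208b-5p and miR-499-3p had 0 counts in every mouse.

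Among 12 miRNAs that are abundant in striated muscle but also in many other tissues, 0 passed after adjustment. Both miR-486 rows, treated above as red-cell miRNAs, belong to these 12. Their counts are identical, so they are not separate measurements. Before adjustment 2 of the 12 passed with a positive and 0 with a negative log2 fold change. Of all 259 tested, 15 (5.79%) passed with a positive and 8 (3.09%) with a negative log2 fold change. For miR-22-3p it was 0.71 ± 0.25 (standard error, adjusted p = 0.429 in edgeR's quasi-likelihood test), and for miR-181a-5p 0.57 ± 0.23 (adjusted p = 0.518 in the same test). miR-378a-3p, which is encoded in a gene of energy metabolism, had -0.13 (standard error 0.22). The median log2 fold change of the 12 was 0.30, beside 0.05 over all miRNAs tested.

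Each list of marker miRNAs of other cells that could contribute to serum had counts in all libraries. The red-cell list had 4 of 5 miRNAs in every mouse, with miR-144-3p at 0 counts in all mice but mice 4 and 6. The summed level of the list went from 556877 to 1138429 CPM in sham mice and from 138817 to 965923 CPM in Acu/LFES mice. That sum was almost all miR-486a-5p and miR-486b-5p, whose rows hold identical counts, so those counts are entered in both. Their log2 fold change was -0.66, while that of miR-451a was 0.34 and that of miR-144-5p was 0.54 (adjusted p = 0.799 for each in edgeR's quasi-likelihood test). The lists for white cells and platelets (5 of 5 in every mouse), liver (3 of 3), smooth muscle (2 of 2) and endothelium (2 of 2) were detected throughout. The summed smooth-muscle miRNAs were 456 to 898 CPM in sham mice and 1040 to 1642 CPM in Acu/LFES mice, mostly from miR-143-3p, whose log2 fold change was 1.03 ± 0.31 (standard error, adjusted p = 0.269 in edgeR's quasi-likelihood test). The other smooth-muscle miRNA, miR-145a-5p, had -0.03 ± 0.89 (standard error). The striated-muscle members, summed, were 10094 to 11262 CPM in sham mice and 7483 to 12488 CPM in Acu/LFES mice, and a difference between the lists was not tested. In serum, fewer vesicles from a tissue and less miRNA per vesicle cannot be told apart. Normalized CPM is relative to the other miRNAs of a library, so equal CPM does not show equal amounts in serum. The authors reported a higher concentration of serum exosomes with Acu/LFES, which these counts do not measure.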

How the data were processed

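The file deposited by the authors holds read counts, not normalized, for each mature miRNA in serum exosomes of 3 sham and 3 Acu/LFES mice. The submitters' processing notes name bcl2fastq, cutadapt 1.6 and DESeq2 1.26.0. The aligner, the counter, the mismatches allowed and the miRNA annotation are not given in the sources used here, and they decide how reads were divided between related miRNAs. Libraries were scaled by TMM factors, and groups were compared by the quasi-likelihood test of edgeR 4.0.16 (R 4.3.3) over the 259 miRNAs left by its default filter on low counts, with Benjamini-Hochberg adjustment and a threshold of 0.05. Standard errors were taken from the F statistic. Ratios and correlations were tested by two-sided exact permutation (scipy 1.17.1, pseudocount 0.5). Alternatives included DESeq2 1.42.0, other scalings and filters, and each mouse left out in turn. The fit was tested on simulated data. Labels do not pair mice, and no other source of replicates is stated, so p-values measure the spread between these mice. No pair of libraries agreed within sampling noise. Named miRNAs were the 8 members, fixed lists of their other arms, of widely expressed muscle miRNAs and of markers of blood, liver, vessel and smooth-muscle cells, and the 5 miRNAs most like the most counted member. The members and lists were chosen with earlier results of these data known. Library totals were between 391708 and 1504137 counts, and intervals and limits cover counting error only. Gene positions are from GENCODE M21 on GRCm38 and mature sequences from RefSeq on GRCm38.p6. Plots used matplotlib 3.10.9 (Python 3.11.15).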

Additional observations from a re-analysis of the deposited data

How the results depend on the processing

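No paired analysis was possible because mouse numbers 1 to 6 are not shared between the groups. After adjustment 0 muscle miRNAs passed 0.05 in any fit run, and with 0 of 259 miRNAs called by edgeR, DESeq2 called 9. The log2 fold changes of miR-1a-3p and miR-133a-3p, near 0, changed sign with the setting, while that of miR-206-3p was negative in 13 of 15 alternatives, with adjusted p from 0.497 to 1 for the 3 tested members over all alternatives. With total counts they were 0.71 for miR-1a-3p, 0.72 for miR-133a-3p and 0.15 for miR-206-3p. With total counts without miR-486a-5p and miR-486b-5p they were 0.11 for miR-1a-3p and 0.078 for miR-133a-3p, and with no filter 0.063 and 0.012. With identical rows collapsed miR-1a-3p was 0.0029, and scaled to miR-103-3p miR-133a-3p was 0.040. With each mouse left out in turn they went from -0.38 to 0.34 for miR-1a-3p, from -0.25 to 0.089 for miR-133a-3p and from -1.19 to 0.049 for miR-206-3p, where the value above 0 was the fit without sham mouse 3. The summed share of the members, higher by 0.552 percentage points with Acu/LFES, was -0.0564 with the TMM-scaled library size as denominator and from -0.0379 (without mouse 6) to 0.999 with each mouse left out. The log2 ratio to miR-133a-3p went from -0.50 to 0.26 for miR-1a-3p and from -0.89 to -0.01 for miR-206-3p with each mouse left out. Scaled to miR-103-3p, r rose to 0.77 for miR-1a-3p with miR-206-3p and to 0.83 for miR-133a-3p with miR-206-3p. Both then passed the threshold, as rho did for all 3 pairs, but the tests do not allow for the shared divisor. On that scale the median r over all pairs of tested miRNAs was 0.39, and 12.2% of pairs had r over 0.8, against 4.21% with TMM factors. With TMM factors and without mice 4 and 5, r of miR-1a-3p with miR-206-3p was -0.97 over the 4 mice left, with no p computed. The cause of these shifts was not tested. At an unadjusted p under 0.05, 23 of 259 miRNAs tested passed (15 higher). With total counts 23 of 259 passed (23 higher), and scaled to miR-103-3p 7 of 259 (7 higher). With total counts without miR-486a-5p and miR-486b-5p 25 of 249 passed (19 higher). With at least 10 counts in every library 18 of 152 passed (9 higher). With no filter 53 of 954 passed (39 higher), and without sham mouse 1 48 of 303 (41 higher). The number tested differed between settings, so the bare counts are not comparable.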

Other observations

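The make-up of the muscle signal differed between mice of the same group, and the groups overlapped. miR-133a-3p took 62.5%, 59.2% and 56.2% of the summed member counts in sham mice 1, 2 and 3 and 48.6%, 71.5% and 64.7% in Acu/LFES mice 4, 5 and 6. miR-1a-3p took 46.8% in mouse 4 and 24.1% in mouse 5, with 28.7% to 36.1% in the sham mice. miR-206-3p took 15.1% in mouse 3 and between 4.28% and 6.69% in the other mice. For every 100 counts of miR-1a-3p there were 52.5 counts of miR-206-3p in mouse 3, against 9.14 in mouse 4 and 13.0 to 23.8 in the other mice. These values were looked at after the levels were seen and were not tested.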
